A study of Mus musculus with 12 samples.

Results

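Voltage-gated sodium channels were followed through 8 of their subunit genes in whole mouse retina. These were the pore-forming alpha subunits Scn1a, Scn2a, Scn3a, Scn8a and Scn9a and the auxiliary beta subunits Scn2b, Scn3b and Scn4b. The 8 genes were chosen by name, with earlier results of these data known, among them that of Scn4b. They are 8 of the 54532 gene identifiers in the tables. All 8 passed the filter on low counts. A further 5 genes of the family were read as a separate list.

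An alpha subunit alone forms a channel that opens when the membrane depolarizes, lets sodium in and then inactivates within moments, which is the rising phase of the action potential. Beta subunits are single-pass membrane proteins with an immunoglobulin-like outer domain; they shape the gating and surface level of the alpha subunit and act as adhesion molecules. Scn2b and Scn4b proteins are bound to alpha subunits by a disulfide bond, whereas the Scn3b protein is bound without one. In the retina these channels are best known from retinal ganglion cells (RGCs), whose axons form the optic nerve, and several amacrine and bipolar cells carry them as well.

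The study asked how immune attack on the optic nerve, and needling at acupoints, change retinal gene expression. All mice were wild type C57BL/6 and 13 weeks old, and the study's methods describe them as female. SHAM mice were sham controls. MOG mice had been immunized with a peptide of myelin oligodendrocyte glycoprotein in complete Freund's adjuvant with Mycobacterium tuberculosis, followed by pertussis toxin, which is a model of multiple sclerosis with optic neuritis. GB20 and GV16 mice had received the same immunization and were then needled on both sides, under xylazine and ketamine, at the acupoint GB20 or at the control acupoint GV16. What the sham treatment consisted of, and whether SHAM and MOG mice were anesthetized, is not given in the sources used here, so needling and anesthesia cannot be told apart, nor can the peptide and the adjuvants. Each group had 3 libraries, from an experiment that was repeated for each replicate with a few mice per group. The sources do not say whether a library pools mice, and p-values measure the spread between these libraries. Library totals ran from 15860278 to 19194280 counts.

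The family members differ in how alike their sequences are, which bears on how far their reads can be told apart. Coding sequences (GENCODE vM21 transcripts, GRCm38) show how alike they are. Scn1a, Scn2a, Scn3a and Scn9a all lie on chromosome 2, at chr2:66270778-66440840 (minus strand), chr2:65620771-65767447 (plus), chr2:65457118-65567627 (minus) and chr2:66480080-66634962 (minus). Scn8a lies apart, at chr15:100869858-101045938 (plus). The coding sequences of Scn2a and Scn3a were identical at 83.3% of aligned bases, and those of Scn8a and Scn9a, the least alike alpha pair, at 70.5%. The longest stretch that is identical in any alpha pair has 188 coding bases and is shared by Scn1a and Scn2a.

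Over whole transcripts, 4.03% of the 50-base words of Scn1a, 5.76% of those of Scn2a, 6.49% of those of Scn3a and 4.16% of those of Scn9a were also found in transcripts of other genes. Only 0.0374% of the words of Scn8a were shared, with Scn2a and Scn3a. Words of Scn2a were also found in 454 genes outside the family, and those of Scn1a, Scn3a and Scn9a in 1 each. How reads with several matches were counted is not given in the sources used here. The study's methods describe paired reads that are longer than these words, so a shared word need not make a read pair ambiguous. Values of the 4 alpha genes on chromosome 2 may carry some uncertainty from each other, and that of Scn2a also from these other genes. How much was not tested. In addition, 1.41% of the exon bases of Scn9a are shared with Gm13629 on the other strand, and without a stated strand setting reads there cannot be told apart.

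The beta genes are far less alike. Scn2b (chr9:45117782-45130070) and Scn4b (chr9:45138395-45154152) are neighbours on the plus strand, 8324 bases apart, and Scn3b (chr9:40269217-40291618, plus) is on the same chromosome. The coding sequences of Scn2b and Scn4b were identical at 48.0% of aligned bases, with no identical run longer than 13. Their most alike ungapped window of 90 bases is shown to make plain how different these neighbours are, with capitals at the 41 bases where Scn2b differs from Scn4b.
Scn4b: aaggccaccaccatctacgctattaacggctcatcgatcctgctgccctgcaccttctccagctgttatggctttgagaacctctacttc
Scn2b: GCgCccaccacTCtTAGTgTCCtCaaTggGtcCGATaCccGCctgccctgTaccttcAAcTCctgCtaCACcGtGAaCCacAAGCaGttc

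Scn4b and Scn3b shared 0 words of 50 bases with any other gene. Scn2b shared 1.01%, with 47 genes outside the family and with no family gene.

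Levels of different genes were compared per gene length, as FPKM, which divides fragments by gene length and library depth. In SHAM retina Scn2b had the highest level of the 8 genes, at 13.2 ± 1.78 FPKM (SD, n = 3 here and for the levels that follow), above every alpha subunit. Scn8a, the alpha subunit of mature nodes and axon initial segments, followed at 9.57 ± 1.17 FPKM. Scn1a, an alpha subunit known from cell bodies and initial segments of many neurons, had 7.22 ± 1.20 FPKM. The libraries of these 3 genes did not overlap between neighbours in the order. Scn3b had 4.30 ± 0.288 FPKM and Scn2a, the alpha subunit of immature and unmyelinated axons, had 4.21 ± 0.641 FPKM, and their libraries overlapped. Scn4b had 2.38 ± 0.156 FPKM. Scn3a, an alpha subunit best known from the embryonic nervous system, had 2.10 ± 0.249 FPKM, overlapping with Scn4b. Scn9a, known from pain-sensing neurons, was lowest at 0.537 ± 0.130 FPKM.

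**Figure D1:**
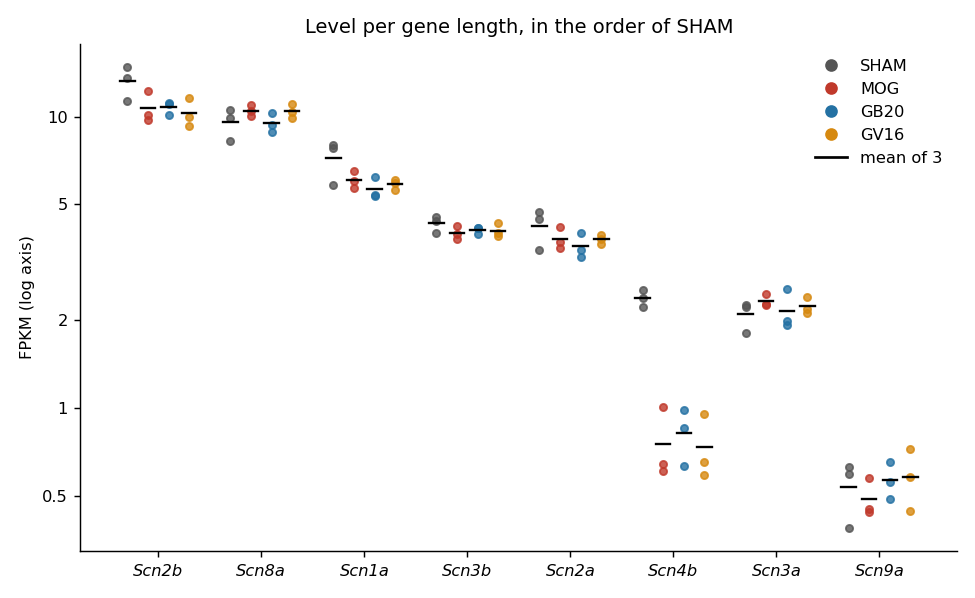
FPKM (log axis) of the 8 subunit genes in each library of the 4 groups, with the mean of 3 as a bar, in the order of the SHAM means. Scn4b lies at 2.38 FPKM beside Scn3a in SHAM and at 0.587 to 1.01 FPKM in the libraries of the 3 immunized groups, nearer to Scn9a.

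The order was different in immunized retina. Scn4b, at 0.754 ± 0.220 FPKM in MOG, stood below Scn3a (2.33 ± 0.110 FPKM) with no overlap, and in GB20 and GV16 its libraries overlapped with those of Scn9a. Scn2b and Scn8a overlapped in MOG (10.7 ± 1.34 and 10.5 ± 0.448 FPKM), in GB20 and in GV16. Among the 5 alpha genes, Scn8a made up 40.6% ± 1.5 of the summed FPKM in SHAM and 45.3% ± 2.05 in MOG. The share of Scn1a was 30.5% ± 0.938 in SHAM and 26.1% ± 1.40 in MOG. That of Scn3a was 8.90% ± 0.232 in SHAM and 10.1% ± 0.384 in MOG. The 3 SHAM and 3 MOG libraries did not overlap in these shares, and they overlapped in those of Scn2a and Scn9a. No test was run on the shares, which by construction move against each other.

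MOG vs. SHAM asks what immunization did to these genes. Values per library are given as CPM, counts relative to the scaled library size, in the order of replicates 1 to 3. Of the 8 members, 1 fell and 0 rose, against 1.34% of all 18299 genes tested that were called in either direction and 0.771% that fell. The gene that fell was Scn4b. The median log2 fold change of the 8 was -0.14, beside -0.0023 over all genes tested. The other 7 had 95% intervals that together ran from -0.54 to 0.37 on the log2 scale. Among them, the intervals of Scn1a (1.04-fold to 1.37-fold lower) and Scn2b (1.07-fold to 1.43-fold lower) lay wholly on the lower side. These intervals are not adjusted for the number of genes. An unadjusted p under 0.05 (edgeR) was found for 3 of the 8 members, against 13% of all genes tested.

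Scn4b, the beta subunit whose cytoplasmic tail can block the open channel and give resurgent sodium current, had 11.99, 11.2 and 12.8 CPM in SHAM, from 198, 190 and 230 counts. In MOG it had 5.04, 3.07 and 3.24 CPM, from 90, 50 and 54 counts. The groups lay far apart, and MOG replicate 1 was the highest of its group. The log2 fold change was -1.65 ± 0.195 (SE), which is 3.15-fold lower with a 95% interval from 2.38 to 4.16 (edgeR quasi-likelihood test, Benjamini-Hochberg adjusted over all genes, adjusted p = 3.48e-05). Scn4b was the only member whose MOG libraries all lay below its SHAM libraries, a pattern that 8.34% of all genes tested had. Since whole retina was sequenced, fewer cells of a type and less RNA per cell cannot be told apart, here or for any gene that follows.

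**Figure D2:**
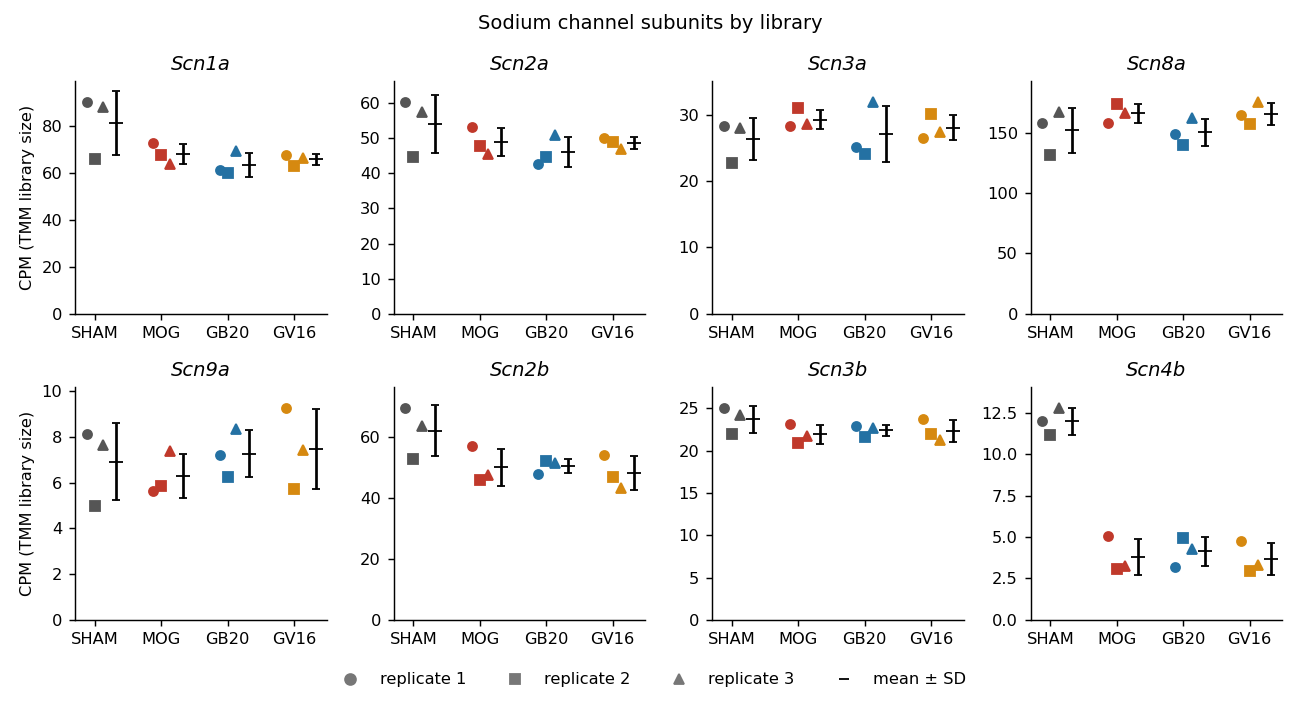
CPM of the 8 subunit genes in each of the 12 libraries, by group, with replicate number as symbol and mean ± SD (n = 3) beside each group; axes start at 0. Scn4b is at 11.2 to 12.8 CPM in SHAM and at 2.96 to 5.04 CPM in the other 9 libraries, while for the other members the groups overlap or lie close together, and SHAM replicate 2 is the lowest SHAM library in all 8 panels.

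Scn2b, the neighbour of Scn4b and the other beta subunit that is bound by a disulfide, had 69.5, 53.0 and 63.7 CPM in SHAM and 57.0, 45.8 and 47.4 CPM in MOG. The groups overlapped through SHAM replicate 2 and MOG replicate 1. Its log2 fold change of -0.31 ± 0.102 missed the threshold (edgeR quasi-likelihood test, Benjamini-Hochberg adjusted over all genes, adjusted p = 0.182). Of 20 alternative settings, 2 called Scn2b. These were the fit without SHAM replicate 2, given below, and the fit without the filter on low counts. The latter gave an edgeR adjusted p of 0.0241 and called 1.56% of all genes. Scn3b, a beta subunit bound without a disulfide, had 25.0, 21.9 and 24.2 CPM in SHAM and 23.1, 21.0 and 21.7 CPM in MOG, with a log2 fold change of -0.11 (adjusted p = 0.626 by the same edgeR test).

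Scn1a had 90.1, 65.7 and 88.0 CPM in SHAM and 72.5, 67.5 and 63.8 CPM in MOG. The SHAM libraries 1 and 3 lay above all MOG libraries, and SHAM replicate 2 lay among them. The log2 fold change was -0.26 ± 0.0963 and did not pass the threshold (edgeR, adjusted p = 0.246). Scn2a had 60.3, 44.8 and 57.4 CPM in SHAM and 53.2, 47.9 and 45.4 CPM in MOG, with SHAM replicate 2 the lowest of the 6 libraries (log2 fold change -0.15, edgeR adjusted p = 0.540).

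Scn8a had 158, 132 and 168 CPM in SHAM and 159, 174 and 167 CPM in MOG. Only MOG replicate 2 stood above every SHAM library, and the log2 fold change was 0.13 (edgeR, adjusted p = 0.535). Scn3a had 28.4, 22.8 and 28.0 CPM in SHAM and 28.3, 31.0 and 28.6 CPM in MOG, with overlapping groups and a log2 fold change of 0.15 (edgeR, adjusted p = 0.574). Scn9a, with only 85 to 138 counts in these 6 libraries, had 8.11, 5.0 and 7.66 CPM in SHAM and 5.65, 5.84 and 7.39 CPM in MOG. Its log2 fold change of -0.14 had the widest interval of the alpha genes (edgeR, adjusted p = 0.802).

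SHAM replicate 2 was the lowest SHAM library for all 8 members, whereas it was the lowest for 38.9% of all genes tested. For 12727 genes, log2 CPM was taken relative to the gene's own mean over the 12 libraries. In SHAM replicate 2 this value fell by 0.0903 for each doubling of gene length, while the other 11 libraries had slopes between -0.0411 and 0.0450. The 5 alpha genes stand at the 91.9th to 97.4th percentile of exon length, and Scn2b, Scn3b and Scn4b between the 50.6th and the 60.1st. SHAM replicate 2 was singled out as the lowest, and leaving it out raises the SHAM mean of every member by construction. Without it, 3 of the 8 members were lower in MOG by edgeR, against 1.15% of all genes. These were Scn4b, Scn1a (log2 fold change -0.38, adjusted p = 0.00847) and Scn2b (-0.40, adjusted p = 0.0285). Leaving out SHAM replicate 1 or 3 instead left only Scn4b called, against 0.641% and 2.28% of all genes. Scn1a was then at -0.18 and -0.20 (edgeR, adjusted p = 0.488 and 0.306), and Scn2b at -0.22 and -0.29 (0.420 and 0.172). With a length trend for each library in the fit, Scn4b and Scn1a (-0.32, adjusted p = 0.0188) were lower, and 2 of 8 members were called, against 1.71% of all genes. The call of Scn4b did not depend on SHAM replicate 2 or on the length trend. The part of gene length in the values of the alpha genes was tested only by the fit with that trend.

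**Figure D3:**
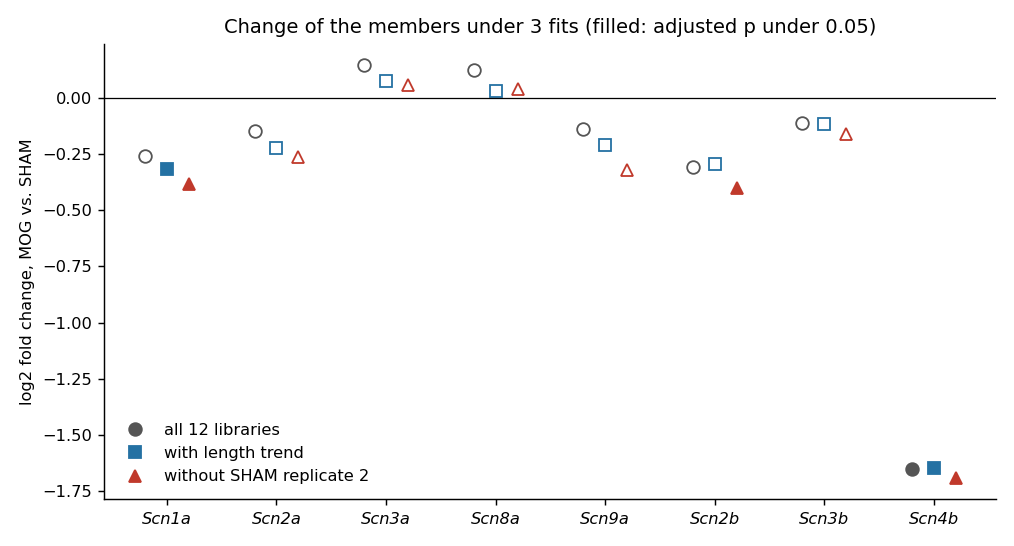
Log2 fold change in MOG vs. SHAM of the 8 members with all 12 libraries, with a length trend for each library, and without SHAM replicate 2; filled symbols had an adjusted p under 0.05 (edgeR). Scn4b lies between -1.69 and -1.65 in all 3 fits, and Scn1a moves from -0.26 to -0.32 and -0.38 and becomes filled. SHAM replicate 2 was the lowest SHAM library for all 8 members, so leaving it out raises their SHAM means.

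Of the 5 further family genes, 3 passed the filter and 0 were called in MOG vs. SHAM by edgeR or DESeq2. The muscle channel Scn4a (log2 fold change -0.14), the sodium-sensing channel Scn7a (0.06) and the sodium leak channel Nalcn (0.024) had an unadjusted p of 0.17 or more. Scn10a and Scn11a, known from sensory neurons, had 0 to 2 and 0 to 7 counts per library and were not tested.

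Markers of RGCs moved in the same comparison. Of 18 RGC markers, 15 fell and 0 rose in MOG, with a median log2 fold change of -0.88; many of them appear among the genes the study itself picked from these libraries, so this list is not independent evidence of its direction. Their summed level was 1144 to 1295 CPM in SHAM and 686 to 813 CPM in MOG, and no RGC marker was at 0 in all libraries. Summed markers of amacrine cells (95.3 to 105% of the SHAM mean), bipolar cells (100.2 to 105%) and rods (93.3 to 103%) stood near SHAM in MOG. So did those of Müller cells (88.9 to 98.4%), vessels (104 to 111%) and muscle (89.4 to 99.1%). Cone markers stood at 90.8 to 93.8% in MOG and at 94.0 to 107% in SHAM, a small difference without overlap. Oligodendrocyte markers stood at 96.3 to 161% of the SHAM mean. Those of microglia stood at 19.3 to 26.1 CPM in SHAM and 32.4 to 37.0 CPM in MOG, and those of pigment epithelium at 12.3 to 18.9 and 22.3 to 29.6 CPM, with no test of these sums. Of single markers outside the RGC list, 1 of 9 Müller cell and 2 of 8 microglia markers were called higher in MOG, and 0 were called in the other lists. What part the RGC fraction has in the values of the sodium channel genes was not tested.

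Each subunit was also set against the mean log2 level of the 18 RGC markers in the same library. This ratio does not depend on library scaling. The RGC marker level itself was 0.73 lower in MOG on the log2 scale, and the log2 fold changes of single markers ran from -1.14 to -0.20. This level is no measure of the number of RGCs, and whether a subunit changed beyond RGC loss was not tested. Relative to the marker level, Scn4b stood at -1.91, -1.86 and -1.64 in SHAM and at -2.49, -2.96 and -2.86 in MOG. All MOG ratios of Scn4b were lower, by 0.97 in the mean (MOG minus SHAM -0.97). Of all genes tested, 0.131% had a lower ratio in MOG with no overlap. The same marker level is subtracted from every gene of a library, so this restates the fall of Scn4b given above. It is no separate support.

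Since the markers in the denominator were lower in MOG, the ratio of a gene that did not change rises. Over all genes the median difference was 0.73, with the middle of the distribution (25th to 75th percentile) from 0.61 to 0.87, and 83.2% of all genes had every MOG ratio above every SHAM ratio. The other 7 members did as well, which is near that background and is no result about them. Their differences, MOG minus SHAM on the log2 scale, were 0.43 for Scn2b, 0.49 for Scn1a, 0.59 for Scn2a, 0.62 for Scn9a, 0.62 for Scn3b, 0.87 for Scn8a and 0.89 for Scn3a. For Scn8a, the ratios were 1.81, 1.70 and 2.07 in SHAM and 2.49, 2.87 and 2.82 in MOG. With 3 libraries against 3 a two-sided exact permutation test cannot go below p = 0.1, and each of the 8 members had that p (0.1 after Benjamini-Hochberg adjustment over the 8 ratios). The 8 ratios share their denominator and are not independent of each other.

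**Figure D4:**
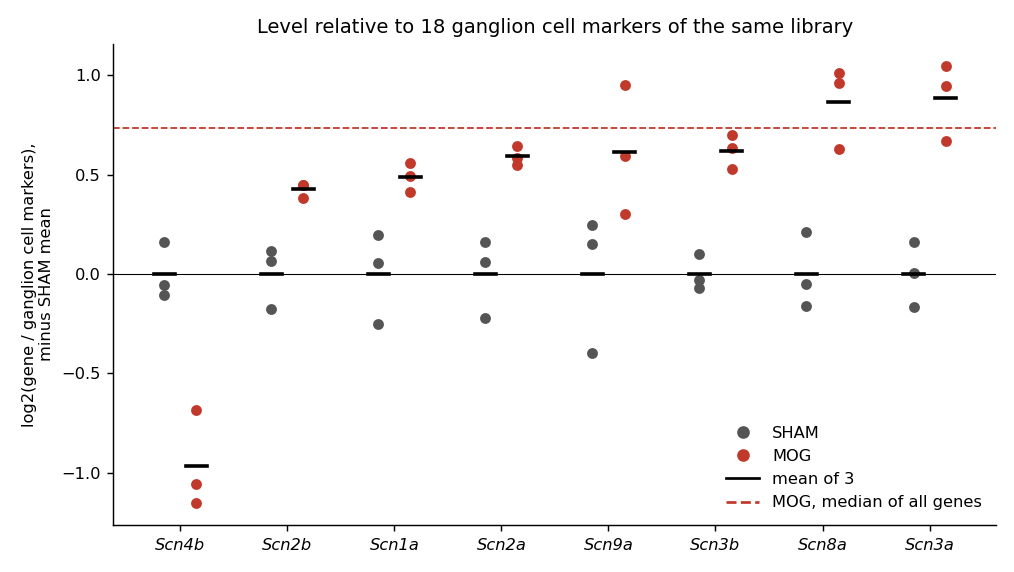
Log2 ratio of each gene to the mean level of 18 RGC markers in the same library, minus the SHAM mean of that gene, for the 3 SHAM and 3 MOG libraries, with the mean as a bar. Scn4b lies 0.97 below its SHAM mean, and the other 7 genes lie 0.43 to 0.89 above theirs, on either side of the dashed line, which is the median of all genes in MOG (0.73).

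GB20 vs. MOG and GV16 vs. MOG ask whether needling changed the genes in immunized mice. In both comparisons 0 of 8 members were called by edgeR, 0 had an unadjusted p under 0.05 and 0 were called by DESeq2. Of all genes, edgeR called 0.24% and 0.164%, DESeq2 on all libraries called 0.409% and 0.263%, and 8% and 5.3% had an unadjusted p under 0.05. Scn4b had 3.19, 4.93 and 4.26 CPM in GB20 and 4.78, 2.96 and 3.28 CPM in GV16, inside or next to the range of the MOG libraries. The log2 fold change of Scn4b was 0.11 in GB20 vs. MOG (95% interval -0.33 to 0.55) and -0.05 in GV16 vs. MOG (-0.50 to 0.41). Scn1a was at -0.10 and -0.05 and Scn2b at 0.0091 and -0.06 in the respective comparisons. Over all 8 members the intervals ran from -0.33 to 0.61 in GB20 vs. MOG and from -0.50 to 0.65 in GV16 vs. MOG. Between the needling sites (GB20 vs. GV16), 0 of 8 members were called by edgeR or DESeq2 and 0 had an unadjusted p under 0.05. Of all genes, 0.00546% were called by edgeR and 0.0145% by DESeq2, and 2.93% had such a p. The log2 fold change of Scn4b was 0.16 with an interval from -0.29 to 0.61.

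The needled groups were also compared with SHAM. These comparisons share the SHAM libraries with MOG vs. SHAM, so their values stand beside each other and are no independent support. Scn4b was the 1 member of 8 called in GB20 vs. SHAM, where 0.344% of all genes were called and 0.18% fell. It was 2.92-fold lower, with a log2 fold change of -1.54 ± 0.193 (edgeR quasi-likelihood test, Benjamini-Hochberg adjusted over all genes, adjusted p = 0.000284). In GV16 vs. SHAM, Scn4b was again the 1 member called, where 0.656% of all genes were called and 0.432% fell; it was 3.25-fold lower, with a log2 fold change of -1.70 ± 0.198 (adjusted p = 6.98e-05 by the same edgeR test).

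**Figure D5:**
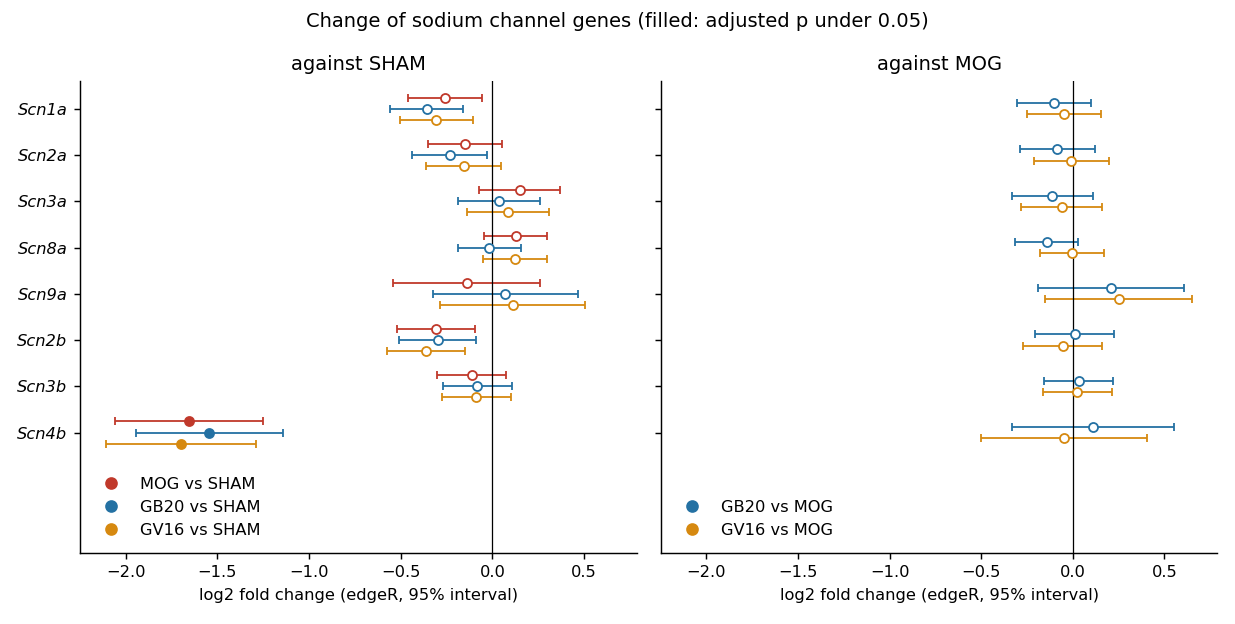
Log2 fold change with 95% interval (edgeR) of the 8 members, against SHAM on the left and against MOG on the right; filled points had an adjusted p under 0.05. Scn4b is filled in all 3 comparisons with SHAM, and no point is filled against MOG.

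Scn1a and Scn2b were called in the needled groups against SHAM only under some settings. Of 20 alternative settings, Scn1a was called in 5 in GB20 vs. SHAM and in 4 in GV16 vs. SHAM. Scn2b was called in 1 and 5 in the respective comparisons. Neither gene was called by DESeq2 on 12 or 6 libraries or by edgeR on 6 libraries. Scn1a had 61.0, 59.9 and 69.3 CPM in GB20 and 67.7, 63.1 and 66.4 CPM in GV16. Its log2 fold change of -0.36 in GB20 vs. SHAM was not called without a block (edgeR, adjusted p = 0.123) and was called with the replicate number as a block (-0.35, adjusted p = 0.0382), a fit that called 2 of 8 members and 0.995% of all genes. In GV16 vs. SHAM it was -0.31 and not called in either fit (edgeR, adjusted p = 0.188 and, with the block, 0.0779). With the length trend in the fit, Scn1a was called in GB20 vs. SHAM (edgeR, adjusted p = 0.0196) and in GV16 vs. SHAM (edgeR, adjusted p = 0.0157), where 0.721% and 0.885% of all genes were called.

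Scn2b had 47.9, 52.1 and 51.4 CPM in GB20, all below the lowest SHAM library, and 54.2, 47.1 and 43.5 CPM in GV16. With Scn4b, it made 2 of 8 members whose GB20 and SHAM libraries did not overlap, against 7.09% of all genes that were lower without overlap. Between GV16 and SHAM only Scn4b had no overlap (7.6% of all genes). The log2 fold change of Scn2b was -0.30 in GB20 vs. SHAM (edgeR, adjusted p = 0.297, and 0.132 with the block). In GV16 vs. SHAM it was -0.36 (edgeR, adjusted p = 0.126), and it was called with the block (adjusted p = 0.0337, in a fit that called 2 of 8 members and 1.29% of all genes) or without GV16 replicate 1 (-0.46, adjusted p = 0.0467). Without SHAM replicate 2, Scn1a and Scn2b were called beside Scn4b in both comparisons with SHAM, which made 3 of 8 members, against 0.502% and 0.539% of all genes. Leaving out SHAM replicate 1 or 3 instead left only Scn4b called in both. The shares of all genes were then 0.0748% and 0.192% in GB20 vs. SHAM and 0.187% and 1.23% in GV16 vs. SHAM. The 7 members not called had 95% intervals that together ran from -0.56 to 0.47 in GB20 vs. SHAM and from -0.58 to 0.51 in GV16 vs. SHAM. Those of Scn1a and Scn2b lay wholly on the lower side in both. An unadjusted p under 0.05 (edgeR) was found for 4 of 8 members in GB20 vs. SHAM, against 9.06% of all genes. In GV16 vs. SHAM it was found for 3 of 8, against 10.9%.

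Genes that work with the channels were read as fixed lists, against the same 1.34% of all genes in MOG vs. SHAM. Of 16 cytosolic and surface partners (fibroblast growth factor homologous factors, calmodulins, ubiquitin ligases and others), 0 were called in MOG vs. SHAM by edgeR, whereas 2 were called by DESeq2 on all libraries and 0 to 3 under the other settings, and the median log2 fold change was -0.11. Of the 16, 1 fell in GV16 vs. SHAM, where 0.432% of all genes fell. It was Fgf12, a homologous factor that binds the alpha subunit's tail and shifts inactivation, with a log2 fold change of -0.46 (edgeR, adjusted p = 0.0304). Leaving out SHAM replicate 1, MOG replicate 2 or either of GV16 replicates 2 and 3 ended this call.

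Of 16 genes of the axon initial segment and node, the places where these channels are anchored, 0 were called in MOG vs. SHAM, with log2 fold changes between -0.24 and 0.19 and a median of 0.012. In GB20 vs. SHAM and GV16 vs. SHAM 0 of the 16 were called as well, and the setting with the replicate block and the length trend called 1 in each of the 3 comparisons.

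Of 10 genes of the sodium pump and the sodium-calcium exchangers, which restore the sodium gradient, 2 fell and 0 rose in MOG vs. SHAM. Fxyd7, a small pump regulator of neurons, had a log2 fold change of -0.97 (edgeR, adjusted p = 0.00645), and Atp1b1, the main pump beta subunit, of -0.34 (edgeR, adjusted p = 0.0315). Leaving out SHAM replicate 1, or either of MOG replicates 2 and 3, ended both calls. In GV16 vs. SHAM, against 0.656% of all genes, 1 of the 10 was called (Fxyd7, log2 fold change -0.91, edgeR adjusted p = 0.0184), and 2 with the replicate block, against 1.29%. Leaving out SHAM replicate 1 or either of GV16 replicates 2 and 3 left 0. In GB20 vs. SHAM, 0 of the 10 were called, and 2 with the replicate block, against 0.995% of all genes. The 16 partners had 0 calls in GB20 vs. SHAM and 1 with the block.

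The genes whose pattern over the 12 libraries was most like that of Scn4b were named by Pearson's correlation of log2 CPM, over 16050 genes with at least 1 CPM in the mean. They were Cplx1 (r = 0.985), which regulates vesicle release, the neurofilament gene Nefm (0.977), Ndrg4 (0.974), Scrt1, a neuronal transcription factor (0.969), and Rasd2 (0.968). All points share the split between SHAM and the 3 immunized groups, so the coefficients are descriptions without a test. Within the family, Scn2b had r = 0.861 (rank 154) and Scn1a 0.737. Scn3b (0.654), Scn2a (0.588) and Scn9a (0.0314) lay in between, and Scn8a was at -0.35 and Scn3a at -0.34.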

How the data were processed

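Retinal RNA of 12 libraries, 3 per group, had been sequenced, and the labels gave each library's group and replicate number. The authors aligned reads with HISAT2 2.0.5 to mm10 (submitters' processing notes), counted them per gene with FeatureCounts and deposited raw counts. The authors also deposited FPKM values, made from count, gene length and library size. For the annotation release, the strand setting and multi-mapping reads, the method is not given in the sources used here. Coordinates, exon lengths and coding sequences came from GENCODE vM21 on GRCm38, the same assembly as mm10, and 54495 identifiers matched.

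Counts were tested with edgeR 4.0.16 (R 4.3.3): expression filter (18299 genes), TMM scaling, 1 mean per group over all 12 libraries, robust quasi-likelihood fit with 8 residual degrees of freedom, Benjamini-Hochberg adjustment over all genes tested and a threshold of 0.05. CPM used TMM library sizes. The 2-sided ratios to RGC markers used exact permutation. Coding sequences were aligned globally, and the longest coding sequence of each gene was used. Alternatives were DESeq2 1.42.0 (all or 6 libraries), its size factors in edgeR, no filter, 6 libraries alone, replicate block, a loess length trend per library as offset, both together, and each library left out in turn. The fitting steps were tested on simulated data.

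Members, lists and named genes were chosen with earlier results of these data known. Named genes were all members, 5 further family genes, called genes of the 3 partner lists, and the 5 genes most correlated with a called member. Replicate numbers were checked for pairing by correlating deviations from group means: same-numbered libraries had r from 0.176 to 0.469 in GB20 and SHAM and from 0.177 to 0.243 in GV16 and SHAM, every pair over 0.1, so blocked values are given there where a call changed. In the other comparisons at least 1 pair was not over 0.1. Library totals were 15860278 to 19194280 counts. Protein sequences and promoters were not used here. Some family and pump genes and the alpha coding sequences are not reported here, and list counts are over the genes that are.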

Additional observations from a re-analysis of the deposited data

How the results depend on the processing

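Scn4b was lower than SHAM and past the threshold under all 20 alternative settings in MOG, GB20 and GV16, with log2 fold changes from -1.94 to -1.38. Levels and ratios to RGC markers moved by less than the spread between libraries. Leaving out 1 of 3 libraries cannot move a group mean by more than that, so this is no sign of stability. The order of genes with overlapping libraries did change. Scn2a stood above Scn3b in SHAM without SHAM replicate 2, and Scn8a above Scn2b in MOG without MOG replicate 1. In GV16, Scn2b stood above Scn8a without GV16 replicate 3. The cause of the changes below was not tested.

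The count of members called, 1 in each comparison with SHAM, became 2 in MOG vs. SHAM without the filter, with the length trend and with block and trend. Beside Scn4b, the member called was Scn2b without the filter and Scn1a in the fits with the trend. The count became 2 in GB20 vs. SHAM without the filter, with the replicate block, the length trend or both. In GV16 vs. SHAM it became 3 without the filter, 2 with the block, 2 with the length trend and 3 with both. Leaving out 1 library gave 1 to 3 members called in each comparison with SHAM. It stayed 0 in the comparisons among immunized groups under all settings.

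Channel partners called in MOG vs. SHAM (0) became 3 without the filter, 2 with DESeq2 on 12 libraries, 1 with DESeq2 or edgeR on 6 libraries, 2 with the replicate block, 1 with the length trend and 2 with both. In GB20 vs. SHAM (0) they became 1 without the filter, with either DESeq2 fit, the block, or block and trend, and in GV16 vs. SHAM (1) they became 0 with edgeR on 6 libraries. Leaving out 1 library gave 0 to 1 in each. Initial segment and node genes (0) became 1 with block and trend in each comparison with SHAM and 1 without the filter in GB20 vs. SHAM. Pump and exchanger genes called (2 in MOG vs. SHAM) became 1 with edgeR on 6 libraries. They became 2 in GB20 vs. SHAM without the filter, with either DESeq2 fit, the block, the trend or both, and 2 in GV16 vs. SHAM without the filter, with DESeq2 on 12 libraries, the block, or block and trend. Leaving out 1 library gave 0 to 2 in each.

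Uncalled log2 fold changes in MOG vs. SHAM moved when 1 library was left out: Scn2a ran from -0.26 to -0.065, Scn9a from -0.32 to -0.014, Scn3a from 0.060 to 0.20 and Scn8a from 0.038 to 0.20. Signs of some others turned. Nalcn in MOG vs. SHAM was -0.064 with the length trend and -0.065 with block and trend, and ran from -0.080 to 0.095 with 1 library left out; Scn7a ran from -0.0083 to 0.12. Against SHAM, leaving out 1 library gave Scn3a -0.10 to 0.11 in GB20 and -0.0067 to 0.14 in GV16, Scn8a -0.11 to 0.057 in GB20, and Scn9a -0.12 to 0.20 in GB20 and -0.074 to 0.27 in GV16. Against MOG it gave Scn1a -0.094 to 0.0022 in GV16, Scn2b -0.053 to 0.12 in GB20 and -0.15 to 0.049 in GV16, and Scn4b -0.037 to 0.38 in GB20 and -0.28 to 0.22 in GV16.

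The background moved too. Genes called in MOG vs. SHAM numbered 245, and 539 without the filter, 404 with the block and 468 with block and trend. In GB20 vs. SHAM 63 became 282, 182 and 242 under these settings, 132 with the trend and 152 and 124 with DESeq2 on 12 and 6 libraries; in GV16 vs. SHAM 120 became 395, 236 and 339, 204 with DESeq2 on 12 libraries and 66 with edgeR on 6. It fell as well as rose when 1 library was left out. MOG vs. SHAM ran from 91 to 427 genes, with 91 and 106 without MOG replicates 3 and 2, 120 without SHAM replicate 1 and 427 without SHAM replicate 3. GB20 vs. SHAM ran from 14 (without SHAM replicate 1) to 116 (without GV16 replicate 1), and GV16 vs. SHAM from 23 (without GV16 replicate 3) to 231 (without SHAM replicate 3). GB20 vs. MOG (44) ran from 13 to 83, and was 140 without the filter, and GV16 vs. MOG (30) ran from 10 to 38. In the 2 comparisons with pairing, the block changed no other call of a member than those given. Where numbers do not pair libraries, it changed no member's call.

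Each group has 3 libraries. Scn9a and Scn4b rest on 46 to 230 counts per library, against 2237 or more for Scn8a.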
